A study of Homo sapiens with 12 samples.

Results

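The mitochondrial ribosomal protein genes were taken as the protein-coding genes whose symbols begin with MRPL or MRPS followed by a number. They were 77 of the 63677 genes counted, 48 with MRPL symbols, named for the large subunit, and 29 with MRPS symbols, named for the small subunit. The split into MRPL and MRPS genes follows the symbols alone, and MRPS18A and MRPS30 sit in the large subunit in known structures. The RNA came from LNCaP, a human prostate cancer line that responds to androgen, kept in hormone-proficient medium, and was sequenced in 12 libraries of 4 groups of 3. The groups were cells overexpressing USP22, cells with the pLPLUC vector control, cells depleted of USP22 by the shRNA shUSP22-4693, and cells with a control shRNA. Both shRNA groups were treated over 5 days with doxycycline (1 ug/mL, given every 48 hours), and the labels give no doxycycline for the overexpression and vector control groups. USP22 is the ubiquitin protease of the SAGA transcriptional coactivator complex. The depletion rests on a single shRNA sequence in a single cell line.

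Mitochondrial ribosomes translate the few proteins encoded by the mitochondrial genome, which are subunits of the respiratory chain and of ATP synthase. Their own proteins are encoded in the nucleus, translated in the cytosol, imported, and assembled with rRNAs made inside the organelle. The small subunit decodes the mRNA, and the large subunit forms the peptide bonds and holds the exit tunnel for the new chain. Some of these proteins have homologues in bacterial ribosomes, and others are found in mitochondria alone. Secretory prostate epithelium is known for exporting citrate, and prostate cancer cells for oxidising it in their mitochondria.

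The libraries held 77607469 to 103690001 counted reads, of which these genes took 0.408% to 0.516%. Levels are given as CPM, counts per 1000000 reads with library sizes scaled by TMM. USP22 followed the labels, with 1498, 1406 and 1495 CPM on overexpression against 482, 491 and 565 CPM in the vector control. It had 257, 265 and 251 CPM on depletion against 480, 473 and 480 CPM in the shRNA control. The level on depletion was 0.539 of that of its control. Luminal prostate markers summed to 4592 to 6629 CPM per library, while 10 markers of basal, mesenchymal, fibroblast or blood cells summed to 11.8 to 27.0 CPM over the 5 that passed the filter. CDH2 had no read, KRT5, TP63 and COL1A2 had 0 to 2 reads per library, and PTPRC had 0 to 12. The others had more reads per library: COL1A1 497 to 1713, VIM 286 to 780, KRT14 35 to 411, S100A2 48 to 86 and LUM 4 to 46. Vector control replicate 3 stood apart: genes of the mitochondrial genome took 0.691% of its reads, the lowest share of the 12 libraries. In that library 49 of the 76 tested mitochondrial ribosomal protein genes were above both other vector control libraries, and 23 were below both. Whether the replicates came from separate cultures is not in the labels, so p-values measure only the spread between these libraries, which may be technical.

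Of the 77 genes, 76 passed the filter on low counts. MRPS21 had no read in any library under its listed ID. Per kilobase of exon, mean levels over the 12 libraries ran from 0.0656 to 87.2 CPM per kilobase, with a median of 23.5 for MRPL and 16.5 for MRPS genes. The length is that of all annotated exons of a gene merged, used or not in these cells, so levels and ranks depend on the annotation. The highest were those of MRPS34, a small subunit protein found in mitochondria alone, at 87.2 CPM per kilobase, and of MRPL51 and MRPL41 of the large subunit at 82.2 and 79.6 CPM per kilobase. The lowest were MRPL38 at 1.11, MRPS24 at 0.388 and MRPL30 at 0.0656 CPM per kilobase. These 3 share exon sequence on the same strand with another annotated gene (37.5%, 23.2% and 19.5% of their exon length). The overlaps are those of GENCODE 29, and how reads in shared exons were counted is not given, so their levels are uncertain. MRPL12 shared more, 68.2%, at 14.8 CPM per kilobase, and the part of overlap in the low levels was not tested. In all, 16 of the 77 had such same-strand overlap and 29 overlapped exons of a gene on the other strand, among them MRPL51 over 31.3% of its exon length. Pseudogenes named after these genes held 0.158% as many reads as the genes themselves.

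The first question was what happened to these genes when USP22 was lowered. The summed transcripts of the family were higher on depletion, and most single genes had small positive changes. Summed over the 48 MRPL and 28 tested MRPS genes, they stood at 4496, 4703 and 4228 CPM on depletion (4476 ± 238) against 3874, 4054 and 3876 CPM in the shRNA control (3935 ± 103; SD, n = 3 each), a difference of 13.7%. All depletion libraries were above all shRNA control libraries. MRPL genes summed to 2736 ± 146 CPM on depletion and 2399 ± 70.7 CPM in the shRNA control. MRPS genes summed to 1739 ± 92.1 CPM on depletion and 1535 ± 32.8 CPM in the shRNA control. The MRPL sum was 14% higher and the MRPS sum 13.3% higher. In bulk RNA, fewer cells with much of a transcript and less of it per cell cannot be told apart.

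**Figure D1:**
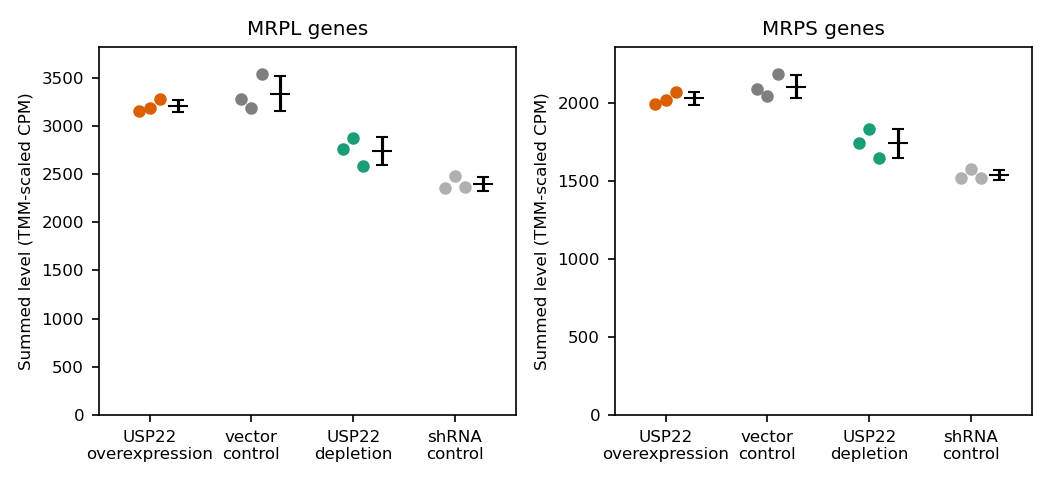
Summed level (TMM-scaled CPM, linear axis from 0) of the MRPL genes (left) and the tested MRPS genes (right) in the 4 groups. Each coloured point is a library, and the black mark with bars is the group mean ± SD (n = 3). The 3 depletion libraries lie above the 3 shRNA control libraries in both panels, and the shRNA control libraries are the lowest of the 4 groups.

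By gene, 32 of 76 rose and 2 fell (edgeR quasi-likelihood test, Benjamini-Hochberg adjusted p under 0.05 over all 26076 tested genes). Of all tested genes 19.8% were called, 9.4% higher and 10.4% lower, against 42.1% higher and 2.63% lower in this family. The log2 fold change was above 0 for 69 and below 0 for 7 genes, and its median was 0.22 (1.16-fold), where the median over all tested genes was 0.00. Replicates did not overlap for 46 genes that were higher on depletion and 5 that were lower, where 20.3% and 21.5% of all tested genes did so. Of the MRPL genes 21 of 48 rose and none fell, and of the MRPS genes 11 of 28 rose and 2 fell. The rises were between 1.15-fold and 1.39-fold, and no gene of the family changed by as much as 1.5-fold in either direction. The count depended on single libraries: it was 21 without shRNA control replicate 1, 21 without depletion replicate 2 and 48 without vector control replicate 3, which enters the estimate of the spread. The shares of all tested genes called in these fits are not given here, so the shifts cannot be read as particular to this family. Of the 32 genes, 20 were called in each of the 12 fits that left out a library. Among the 35 tested genes with no annotated exon overlap on either strand, 16 rose and 1 fell.

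Markers moved in this comparison too. Of 9 luminal prostate markers 1 rose and 6 fell on depletion, among them KLK3, which encodes prostate-specific antigen, with 330, 358 and 290.4 CPM on depletion against 1464, 1426 and 1394 CPM in the shRNA control. The luminal list summed to 4592 to 5100 CPM on depletion and 6428 to 6629 CPM in the shRNA control. The 5 tested markers of other cells summed to 21.3 to 24.6 CPM on depletion and 25.8 to 27.0 CPM in the shRNA control, with 1, VIM, lower. Their part in the rise of the mitochondrial ribosomal protein genes was not tested.

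**Figure D2:**
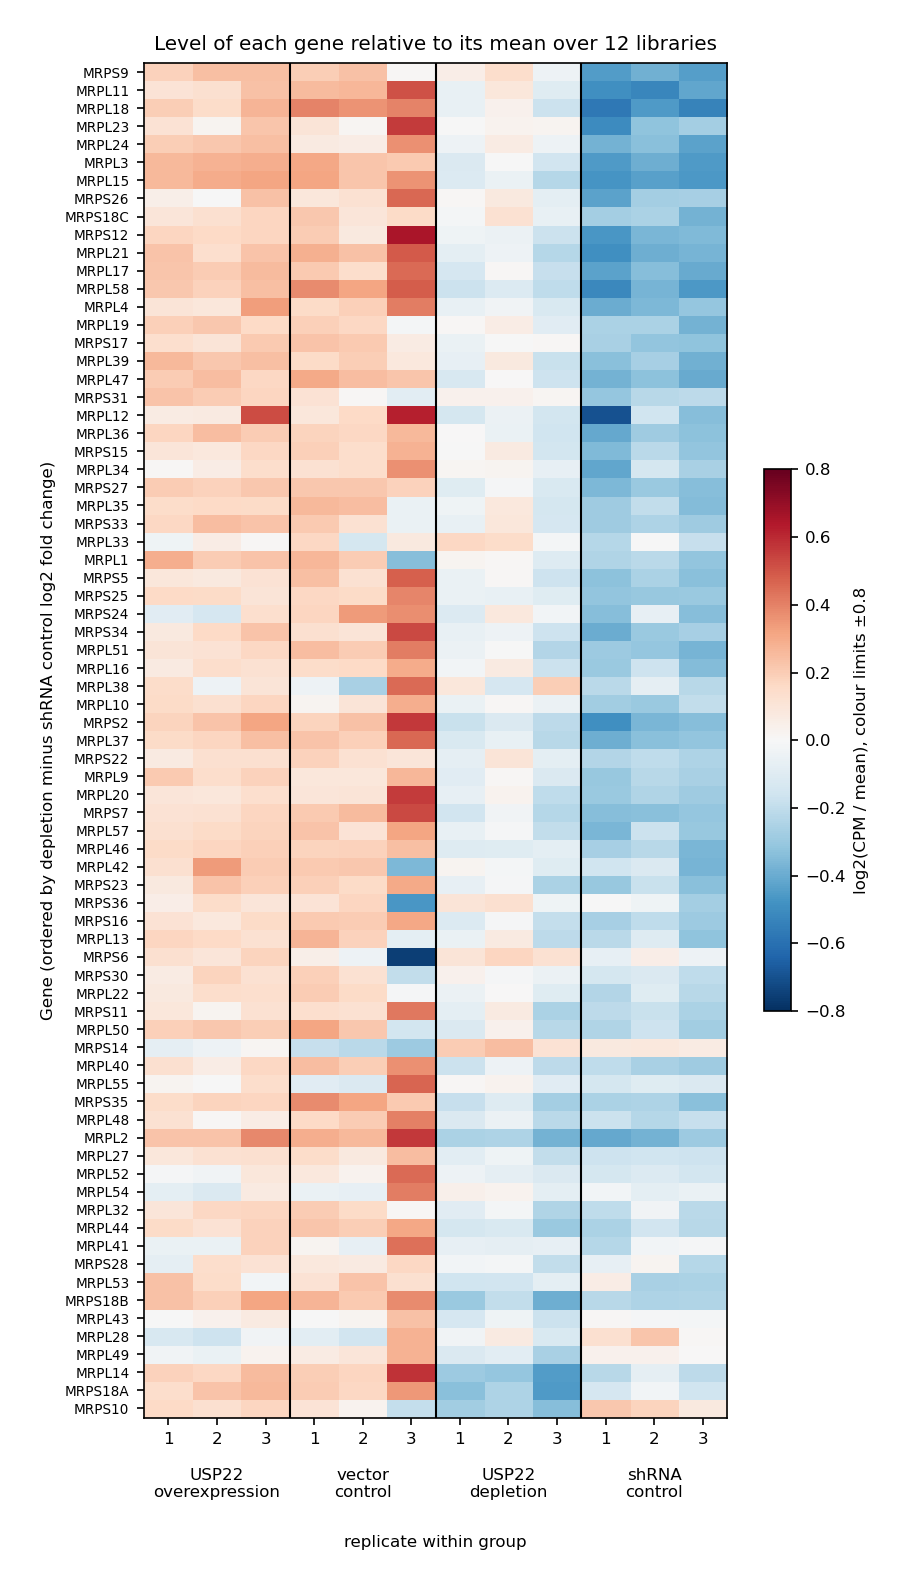
Level of each gene in each of the 12 libraries as log2 of its CPM over its mean across the libraries (red above, blue below, limits ±0.8), with genes ordered by the log2 fold change of depletion minus shRNA control. It holds the 75 genes with a mean of at least 1 CPM. The shRNA control columns are blue for most genes, the depletion columns are paler, vector control replicate 3 holds the darkest reds, and MRPS10 at the bottom runs the other way.

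MRPS9, a small subunit protein with a bacterial homologue, had the largest rise. It stood at 46.8, 49.9 and 44.0 CPM on depletion, against 33.2, 34.7 and 33.3 CPM in the shRNA control. That is 1.39-fold (log2 fold change 0.48, SE 0.07, edgeR adjusted p = 0.000127), and the lowest depletion library was well above the highest control library. MRPL11, at the base of the stalk of the large subunit that recruits elongation factors, had 42.7, 47.4 and 41.6 CPM on depletion, against 31.6, 30.9 and 33.4 CPM in the shRNA control. MRPL11 was 1.37-fold higher (log2 fold change 0.46, SE 0.08, edgeR adjusted p = 0.000495), again with no overlap. MRPL18, of the central protuberance of the large subunit, had 88.4, 94.2 and 81.7 CPM on depletion, against 61.9, 67.2 and 63.6 CPM in the shRNA control. Its change of 1.37-fold (log2 fold change 0.46, SE 0.06) had the smallest adjusted p of the family, 7.93e-05 (edgeR).

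The next rises were 4 MRPL genes and MRPS26. MRPL23, whose bacterial homologue lies at the exit tunnel, had 54.8, 55.9 and 55.7 CPM on depletion, against 38.7, 43.9 and 45.3 CPM in the shRNA control (log2 fold change 0.38, SE 0.11, edgeR adjusted p = 0.0234). MRPL24, also at the exit tunnel, had 125, 135 and 125 CPM on depletion, against 98.8, 102 and 95.8 CPM in the shRNA control (log2 fold change 0.38, SE 0.07, edgeR adjusted p = 0.00172). MRPL23 lost its call in 1 of the 12 fits without a library (edgeR adjusted p = 0.0793). MRPL3, a large subunit protein with a bacterial homologue close to the catalytic centre, had 161, 174 and 157 CPM on depletion, against 127, 133 and 127 CPM in the shRNA control (log2 fold change 0.34, edgeR adjusted p = 0.000326). MRPL15, another large subunit protein with a bacterial homologue, had 51.2, 53.2 and 47.2 CPM on depletion, against 39.9, 40.8 and 40.2 CPM in the shRNA control (log2 fold change 0.33, edgeR adjusted p = 0.00117). MRPS26, a small subunit protein found in mitochondria alone, had 83.2, 87.3 and 78.5 CPM on depletion, against 61.6, 68.4 and 68.7 CPM in the shRNA control (log2 fold change 0.33, edgeR adjusted p = 0.0201). MRPS26 lost its call in 2 of those 12 fits, where the adjusted p reached 0.0676 (edgeR). In all 5 genes every depletion library was above every control library.

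MRPS10, a small subunit protein with a bacterial homologue, fell. It had 36.0, 36.8 and 34.4 CPM on depletion, against 50.7, 49.5 and 46.0 CPM in the shRNA control. That is 0.733 of the control level (log2 fold change -0.45 with an SE of 0.07; adjusted p = 0.000364 by edgeR). It was called lower in each of the 12 fits that left out a library. MRPS18A had 12.7, 13.5 and 11.7 CPM on depletion, against 14.6, 15.8 and 14.3 CPM in the shRNA control. The replicates did not overlap, but the call (log2 fold change -0.23, SE 0.08, edgeR adjusted p = 0.043) was lost in 8 of the 12 fits without a library, where the adjusted p reached 0.237. Of the exon length of MRPS18A, 47.0% overlaps exons of RSPH9 on the other strand, and the strand setting of these counts is not stated in the sources at hand; the reads of both genes may not be told apart.

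**Figure D3:**
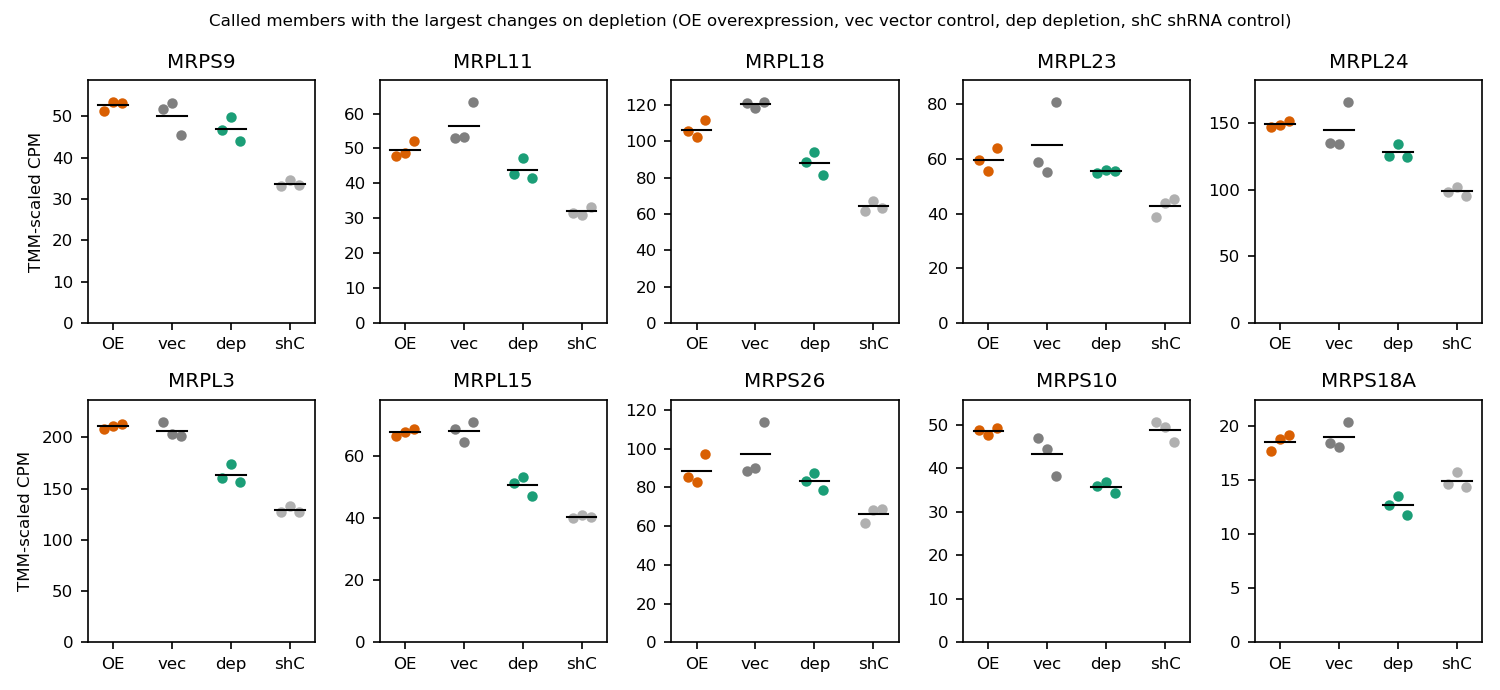
Level (TMM-scaled CPM, linear axes from 0) in every library of the 8 genes with the largest called rises on depletion and of the 2 genes called lower. Points are libraries, the black line is the mean of 3, and groups are overexpression (OE), vector control (vec), depletion (dep) and shRNA control (shC). In the first 8 panels depletion stands above the shRNA control and neither group reaches the highest vector control library, and in the MRPS10 and MRPS18A panels depletion is the lowest group.

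The paralogs MRPS18A, MRPS18B and MRPS18C, which derive from a common bacterial protein, gave separate results. MRPS18C had 16.9, 18.6 and 16.4 CPM on depletion, against 14.2, 14.4 and 13.2 CPM in the shRNA control, and rose (log2 fold change 0.32, SE 0.07, edgeR adjusted p = 0.00429). MRPS18B had 59.9, 64.2 and 56.2 CPM on depletion, against 63.1, 62.0 and 62.4 CPM in the shRNA control, and the groups overlapped (log2 fold change -0.06, SE 0.07, edgeR adjusted p = 0.621). Differences between the paralogs were not tested. Exons of ABRAXAS1 on the other strand cover 40.2% of those of MRPS18C.

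Among genes with roles beyond the ribosome or at its functional centres, MRPL58, a peptidyl-tRNA hydrolase built into the large subunit, had 43.7, 45.7 and 42.8 CPM on depletion, against 34.5, 38.1 and 35.7 CPM in the shRNA control (log2 fold change 0.29, edgeR adjusted p = 0.00356). MRPS27, a pentatricopeptide repeat protein of the small subunit, had 194, 206 and 190 CPM on depletion, against 162, 169 and 164 CPM in the shRNA control (log2 fold change 0.26, edgeR adjusted p = 0.00188). MRPS31, a small subunit protein found in mitochondria alone, had 20.1, 20.1 and 19.8 CPM on depletion, against 15.8, 16.8 and 17.0 CPM in the shRNA control (log2 fold change 0.27, edgeR adjusted p = 0.00769). These 3 rose with no overlap between groups. MRPS12, whose bacterial homologue lies at the decoding centre, had 52.8, 52.5 and 48.1 CPM on depletion, against 39.3, 42.0 and 42.5 CPM in the shRNA control. It missed the threshold (log2 fold change 0.31, SE 0.11, edgeR adjusted p = 0.0531), although the groups did not overlap.

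Several other genes with known roles were not called. MRPL12, a stalk protein that also binds the mitochondrial RNA polymerase, had 13.4, 14.3 and 13.4 CPM on depletion, against 9.15, 13.3 and 11.7 CPM in the shRNA control (log2 fold change 0.27, SE 0.15, edgeR adjusted p = 0.251). Its control libraries were spread widely, and 68.2% of its exon length is shared with another annotated gene on the same strand. MRPS7, a small subunit protein with a bacterial homologue, stood at 86.7 ± 6.09 CPM on depletion and 75.8 ± 0.806 CPM in the shRNA control (log2 fold change 0.19, edgeR adjusted p = 0.0939). MRPL28, a large subunit protein with a bacterial homologue, stood at 53.6 ± 3.61 CPM on depletion and 59.3 ± 4.27 CPM in the shRNA control (log2 fold change -0.14, edgeR adjusted p = 0.352). MRPS36, known also as a component of the alpha-ketoglutarate dehydrogenase complex, stood at 23.9 ± 1.43 CPM on depletion and 21.3 ± 2.12 CPM in the shRNA control (log2 fold change 0.16, edgeR adjusted p = 0.417; SD, n = 3 each).

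Because the family moved mostly one way, the promoters of the genes with the largest rises and of the 2 that fell are shown for comparison. They run from 250 bases before to 50 bases after the annotated start, 5′ to 3′ along the gene, from RefSeq on GRCh38.p14. Capitals mark CCGGAAG, a core bound by ETS factors such as GABP, on either strand. The MRPS9 window is chr2:105037819-105038118 on the plus strand, that of MRPL11 chr11:66438799-66439098 on the minus strand, that of MRPL18 chr6:159789562-159789861 on the plus strand, that of MRPS10 chr6:42217812-42218111 on the minus strand and that of MRPS18A chr6:43687742-43688041 on the minus strand.
MRPS9: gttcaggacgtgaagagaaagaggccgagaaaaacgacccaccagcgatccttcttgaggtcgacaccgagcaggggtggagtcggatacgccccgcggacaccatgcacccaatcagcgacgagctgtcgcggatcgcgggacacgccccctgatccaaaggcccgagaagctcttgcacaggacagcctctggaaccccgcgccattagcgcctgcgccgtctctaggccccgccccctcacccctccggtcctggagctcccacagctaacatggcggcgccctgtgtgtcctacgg
MRPL11: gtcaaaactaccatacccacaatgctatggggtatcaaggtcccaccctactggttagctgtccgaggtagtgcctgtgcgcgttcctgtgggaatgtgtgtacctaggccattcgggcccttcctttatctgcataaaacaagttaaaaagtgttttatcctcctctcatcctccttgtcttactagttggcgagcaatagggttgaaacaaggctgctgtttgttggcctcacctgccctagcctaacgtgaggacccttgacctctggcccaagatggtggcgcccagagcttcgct
MRPL18: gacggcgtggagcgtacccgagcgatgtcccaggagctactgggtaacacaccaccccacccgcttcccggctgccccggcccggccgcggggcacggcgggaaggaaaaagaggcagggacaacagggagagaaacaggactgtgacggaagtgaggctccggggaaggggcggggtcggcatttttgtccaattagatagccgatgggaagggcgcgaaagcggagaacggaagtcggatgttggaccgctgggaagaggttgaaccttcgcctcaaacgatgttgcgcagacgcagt
MRPS10: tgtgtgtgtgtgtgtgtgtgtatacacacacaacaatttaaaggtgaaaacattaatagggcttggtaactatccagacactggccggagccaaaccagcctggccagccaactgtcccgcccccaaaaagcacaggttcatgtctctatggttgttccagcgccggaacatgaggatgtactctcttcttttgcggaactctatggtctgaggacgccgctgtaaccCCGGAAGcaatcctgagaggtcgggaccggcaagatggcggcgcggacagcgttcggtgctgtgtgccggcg
MRPS18A: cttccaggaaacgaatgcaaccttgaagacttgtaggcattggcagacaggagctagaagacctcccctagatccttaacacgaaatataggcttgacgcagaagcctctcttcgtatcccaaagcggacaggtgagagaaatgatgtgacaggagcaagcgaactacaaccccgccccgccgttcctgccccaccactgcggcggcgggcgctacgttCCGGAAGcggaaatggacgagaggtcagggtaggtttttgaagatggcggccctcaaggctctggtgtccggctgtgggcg

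CCGGAAG was absent from the windows of the 3 genes with the largest rises and stood 1 time in each window of the 2 genes that fell. The windows of MRPL3 and MRPS26, which also rose, held 1 match each. Of the 77 genes, 68 matched a RefSeq promoter, and 29 of these (42.7%) held CCGGAAG on either strand, against 10.7% of all 27305 promoters and 14.2% of 15842 promoters of protein-coding genes of the same length. GCGCATGCG, the core site of NRF1, was in 3 (4.41%), against 2.1% of all promoters and 2.76% of those of protein-coding genes. CACGTG, the E box bound by MYC, was in 5 (7.35%), against 7.44% of all promoters and 8.88% of those of protein-coding genes. None of these motifs contains another. Among tested genes of the family with CCGGAAG 10 of 28 rose on depletion, with a median log2 fold change of 0.21, and among those without it 17 of 39 rose, with a median of 0.22. A match describes letters in this window and no binding. Only exact letters were searched, so a window without a match may still hold a variant of the site.

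The second question was what happened to the family when USP22 was raised. No gene of the family was called by edgeR at an adjusted p under 0.05, where 4.11% of all tested genes were called, 1.51% higher and 2.6% lower. At an unadjusted p under 0.05 there were 14 genes, 4 higher and 10 lower, by the same test. These were 18.4% of the family, where 18.5% of all tested genes had such a p. At the adjusted threshold DESeq2 called 1 gene and limma voom none. The summed level was 5149, 5195 and 5352 CPM on overexpression (5232 ± 107) against 5361, 5230 and 5714 CPM in the vector control (5435 ± 251; SD, n = 3 each), and the groups overlapped. The median log2 fold change was -0.05, and -0.01 over all tested genes. The sign was positive for 20 and negative for 56 genes, and replicates did not overlap for 5 genes that were higher and 15 that were lower, against 9.64% and 12.8% of all tested genes. Without vector control replicate 3 the median was -0.01, with MRPS14 called higher and MRPS35 called lower. The median SE of a gene's log2 fold change was 0.07 here and 0.07 on depletion.

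MRPS14, a small subunit protein with a bacterial homologue, came closest to a call on overexpression. It had 57.6, 58.8 and 61.1 CPM on overexpression, against 53.3, 52.1 and 49.5 CPM in the vector control. The groups did not overlap (log2 fold change 0.20, SE 0.06, edgeR adjusted p = 0.0711). It was called by DESeq2 (log2 fold change 0.20, adjusted p = 0.0172), and not by limma voom (adjusted p = 0.0781). MRPS10 had 48.7, 47.7 and 49.2 CPM on overexpression, against 47.0, 44.4 and 38.2 CPM in the vector control. Its log2 fold change was 0.17 with an SE of 0.07 (adjusted p = 0.236 by edgeR) and was 0.08 without vector control replicate 3, the lowest library of its group. MRPS9, MRPL11 and MRPL18 had log2 fold changes of 0.07, -0.19 and -0.18 (SE 0.07, 0.08 and 0.06; edgeR adjusted p = 0.624, 0.205 and 0.136).

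**Figure D4:**
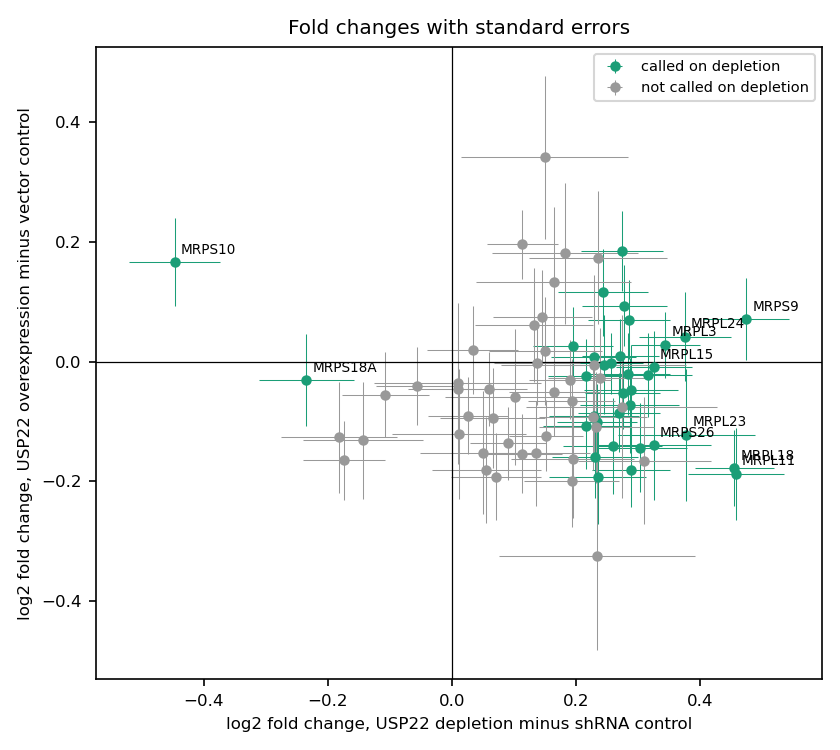
Log2 fold change on USP22 depletion minus shRNA control (horizontal) against that on overexpression minus vector control (vertical) for the 75 genes with a mean of at least 1 CPM, with bars of 1 SE. Green genes were called on depletion, grey ones were not, and none was called on overexpression. The green genes lie to the right of 0 at rises of 0.20 to 0.48, except MRPS10 and MRPS18A on the left, and their vertical values lie on both sides of 0.

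The comparisons with overexpression and with depletion share no library, so their difference was tested directly, as the log2 fold change on overexpression minus that on depletion. Of the 76 genes 19 had a negative difference and 1 a positive one, against 5.98% and 4.91% of all tested genes (edgeR adjusted p under 0.05). The median difference was -0.26, where that of all tested genes was 0.00. MRPL18 had the smallest adjusted p (difference -0.63, SE 0.09, edgeR adjusted p = 0.000285), with -0.18 on overexpression and 0.46 on depletion. MRPL11 differed by -0.65 (edgeR adjusted p = 0.0012), MRPL58 by -0.47 (0.00262) and MRPL21, a large subunit protein with a bacterial homologue, by -0.45 (0.0115). MRPS10 was the gene with a positive difference (0.61, SE 0.10, edgeR adjusted p = 0.00114). The count of 19 varied from 5 to 34 when a library was left out. It was 5 without overexpression replicate 1, 8 without overexpression replicate 2, 5 without shRNA control replicate 1, 8 without shRNA control replicate 3, 8 without depletion replicate 1, 6 without depletion replicate 2 and 34 without vector control replicate 3. Here too the shares of all tested genes in the same fits are not given.

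The 2 control lines themselves were far apart in these genes. In the shRNA control minus vector control comparison 59 of 76 genes were lower and 1 was higher, against 21.3% and 21.7% of all tested genes (43% called in either direction, edgeR adjusted p under 0.05). The summed level of 3935 ± 103 CPM in the shRNA control and 5435 ± 251 CPM in the vector control gave a ratio of 0.724. The median log2 fold change was -0.48 (0.719-fold), where that of all tested genes was 0.02. Replicates did not overlap for 62 genes that were lower in the shRNA control and 1 that was higher, against 24.2% and 25.6% of all tested genes. The 2 lines differ in vector and in doxycycline, so these cannot be told apart. Without vector control replicate 3, 62 genes were lower. Markers of other cell types differed between these lines as well: 3 of 5 tested ones were higher in the shRNA control, where they summed to 25.8 to 27.0 CPM, against 11.8 to 14.7 CPM in the vector control. Of the 9 luminal markers 6 were higher and 2 lower in the shRNA control, where the list summed to 6428 to 6629 CPM, against 5005 to 5361 CPM in the vector control. The part of either list in the result was not tested.

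MRPL18 fell most between these lines, with 61.9, 67.2 and 63.6 CPM in the shRNA control, against 121, 118 and 122 CPM in the vector control (log2 fold change -0.91, SE 0.06, edgeR adjusted p = 1.29e-08). MRPL58 followed, with 34.5, 38.1 and 35.7 CPM in the shRNA control, against 63.8, 61.4 and 68.9 CPM in the vector control (log2 fold change -0.84, edgeR adjusted p = 2.44e-08). MRPL11 was also lower, by a log2 fold change of -0.82 (adjusted p = 3.39e-07 by edgeR). In each of the 3 genes the highest shRNA control library was far below the lowest vector control library. MRPS14 was the gene that was higher, with 64.0, 64.0 and 63.2 CPM in the shRNA control, against 53.3, 52.1 and 49.5 CPM in the vector control (log2 fold change 0.30, SE 0.06, edgeR adjusted p = 0.00043). MRPS10 did not pass the test between these lines (log2 fold change 0.17, SE 0.07, edgeR adjusted p = 0.0672), but edgeR called it higher with the replicate block (adjusted p = 0.0412), with the 1 CPM filter (0.0265), with no filter (0.0483) and without vector control replicate 1 (0.022).

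Set against the vector control, the depletion libraries were still lower in most of these genes. There 46 of 76 genes were lower and 1 was higher, against 18.6% and 16.2% of all tested genes (34.8% in either direction, edgeR adjusted p under 0.05), with a median log2 fold change of -0.28 (0.826-fold) and 0.00 over all tested genes. Replicates did not overlap for 51 genes that were lower and 2 that were higher, against 21.9% and 21% of all tested genes. This comparison shares its libraries with the 2 above. Of the tested markers of other cells 2 of 5 were higher on depletion, where they summed to 21.3 to 24.6 CPM, against 11.8 to 14.7 CPM in the vector control. Of the 9 luminal markers 2 were higher and 3 lower, with sums of 4592 to 5100 CPM on depletion and 5005 to 5361 CPM in the vector control. Their part in these differences was not tested. MRPL14 and MRPL2, large subunit proteins with bacterial homologues, had the largest falls. MRPL14 stood at 30.2, 29.8 and 27.1 CPM on depletion, against 42.3, 41.6 and 55.1 CPM in the vector control (log2 fold change -0.67, SE 0.09, edgeR adjusted p = 3.49e-05). MRPL2 stood at 18.6, 18.7 and 17.0 CPM on depletion, against 27.1, 26.6 and 32.8 CPM in the vector control (log2 fold change -0.67, SE 0.08, edgeR adjusted p = 1.36e-05). Neither gene was called against the shRNA control, with log2 fold changes of -0.18 for MRPL14 and 0.07 for MRPL2. MRPS18A was also among the largest falls (log2 fold change -0.58, edgeR adjusted p = 2.34e-05). MRPS14 was again the gene that was higher, with 69.6, 71.8 and 65.5 CPM on depletion (log2 fold change 0.42, SE 0.06, edgeR adjusted p = 3.35e-05), and its level was lowest in the vector control of the 4 groups.

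**Figure D5:**
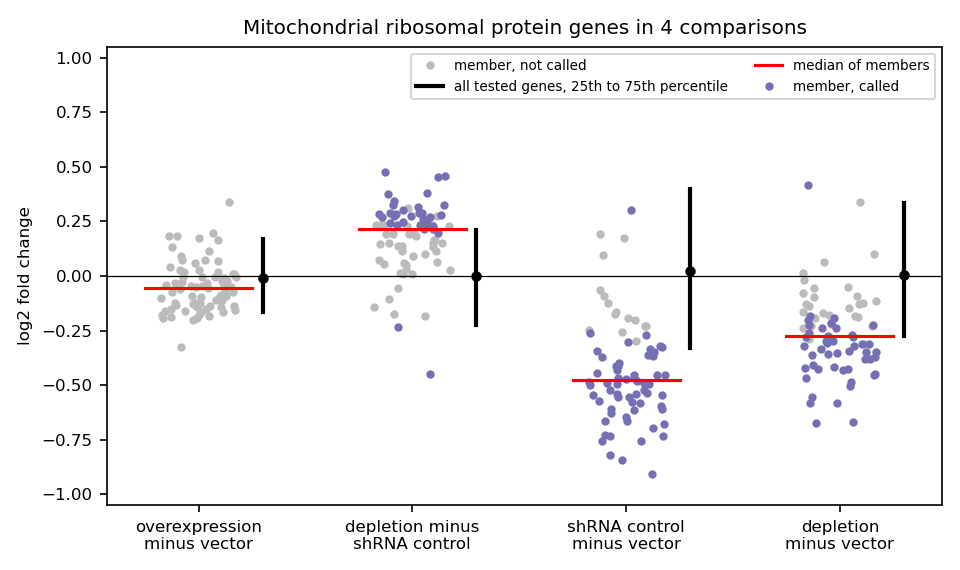
Log2 fold changes of the 75 genes with a mean of at least 1 CPM in 4 comparisons, each named with its first group minus its second. Purple points passed the edgeR test (adjusted p under 0.05), grey points did not, the red line is the median of the family, and the black bar with a dot is the 25th to 75th percentile and median of all tested genes. No point is purple for overexpression, most purple points are above 0 for depletion minus shRNA control, and most points are below 0 in both comparisons with the vector control; the first 2 comparisons share no library, and every other pair of them does.

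The rest of the mitochondrial translation pathway was counted with the same fit. Over all tested genes, 9.4% rose and 10.4% fell on depletion. On depletion, mitoribosomal proteins under other symbols had 1 of 5 higher and none lower, which was PTCD3, a small subunit protein (169 ± 9.8 CPM on depletion and 146 ± 1.61 CPM in the shRNA control, edgeR adjusted p = 0.0119). Of 25 tested assembly factors 3 rose and 2 fell, near the shares over all tested genes. MALSU1, a factor of large subunit assembly, rose (log2 fold change 0.24, edgeR adjusted p = 0.0148), and MTERF4, which takes part in large subunit assembly with NSUN4, fell to 0.572 of the control level (log2 fold change -0.81, edgeR adjusted p = 3.33e-07). Of 17 mitochondrial translation factors 6 rose and none fell, among them MRRF, the ribosome recycling factor (log2 fold change 0.30, edgeR adjusted p = 0.001), and SLIRP, an mRNA-binding partner of LRPPRC (0.32, edgeR adjusted p = 0.00126). Median log2 fold changes were 0.16 for the proteins under other symbols, 0.11 for assembly factors and 0.14 for translation factors, against 0.22 for the MRPL and MRPS genes. On overexpression 1 gene of these 3 lists was called, MPV17L2, an assembly factor, which was lower (log2 fold change -0.29, edgeR adjusted p = 0.0352). Of all tested genes 4.11% were called there.

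The 13 protein-coding genes of the mitochondrial genome, which these ribosomes translate, had 1 gene higher and none lower on depletion, MT-CO3, a subunit of cytochrome c oxidase (log2 fold change 0.41, edgeR adjusted p = 0.0432). Of all tested genes 9.4% rose and 10.4% fell on depletion. On overexpression 5 of the 13 were higher, against 1.51% of all tested genes. Among them were MT-ND4L and MT-ND5 of complex I (log2 fold changes 0.72 and 0.48, edgeR adjusted p = 0.00562 and 0.0244). Vector control replicate 3 had 5857 CPM for the list against 8991 and 8875 CPM in its group mates, and its part in that count was not tested. Of 82 tested genes listed by symbols of cytosolic ribosomal proteins 33 rose and none fell on depletion, with a median log2 fold change of 0.18. In the shRNA control 81 of the 82 were lower than in the vector control, against 21.3% of all tested genes. The list follows symbols alone, so it also holds RPS19BP1, named for binding RPS19, and RPS27AP5, whose symbol is that of a pseudogene. RPS19BP1 was among the 81 (log2 fold change -0.54, edgeR adjusted p = 0.00125) and was not called on depletion. RPS27AP5, with a mean of 0.310 CPM in the shRNA control and 0.374 CPM in the vector control, was not called in either comparison. MYC, a transcription factor known to raise genes for ribosomes and mitochondria, had 153, 163 and 156 CPM on depletion, against 93.1, 97.3 and 103.5 CPM in the shRNA control (log2 fold change 0.68, edgeR adjusted p = 1.78e-06). MYC stood at 290, 293 and 335 CPM in the vector control, far above both shRNA groups. The part of MYC in the levels of the mitochondrial ribosomal protein genes was not tested.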

How the data were processed

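Per the labels' protocols, the 12 LNCaP libraries were made from total RNA with a stranded kit. The authors deposited raw read counts per Ensembl gene ID in a single table. The submitters' processing notes name hg19 as the build and list DESeq2 1.14.1, featureCounts 1.5.0-p3 and STAR 2.5.2a. How the counting treated strand and multiply mapped reads is not given in the sources used here. Reads of overlapping genes may be split or lost. Symbols, types and exon lengths came from GENCODE 29 by ID, and 82.0% of IDs had a symbol. The rest held 5.63% of the reads. MRPL45 was not analysed here. Files of the build of the counts were not at hand, so gene coordinates are given for RefSeq promoters on GRCh38.p14 alone.

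The fits used edgeR 4.0.16 under R 4.3.3. Genes passed filterByExpr by group (26076), library sizes were scaled by TMM, and glmQLFit took all 4 groups in 1 model, leaving 8 residual degrees of freedom, with contrasts tested by glmQLFTest. Benjamini-Hochberg adjustment ran over every tested gene, with a threshold of 0.05. The SE is the size of the fold change over the root of F. With 3 libraries a group, exact two-sided permutation cannot go below p = 0.1. The procedure was also run on simulated data, but the outcome is not given here and no result rests on it. No pair of replicates was as close as counting noise allows (lowest chi-square per degree of freedom 6.55). That measure sums over genes, and in single genes the spread between the libraries of a group can be as small as counting error.

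The members, the other gene lists and the tests were chosen with earlier results of these data known. Genes named were the called ones, up to 8 per direction, with the largest changes and replicates that do not overlap on overexpression or depletion, 5 of the difference, 3 per direction in the other comparisons, 13 preset ones, the 3 highest and 3 lowest per length, and up to 2 called genes per other list and comparison. MRPS35, MRPS6 and MRPL49 were named after their values were seen. Also named outside this rule were PPARGC1A, NRF1, GABPA, RPS19BP1, RPS27AP5 and the markers given by read counts. Alternatives were RLE scaling, other filters, DESeq2 1.42.0, limma 3.58.1 voom, only the libraries compared, protein-coding genes alone, a block by replicate number, and leaving out each library. Counting members without exon overlap, counting those of at least 5 CPM, and leaving out the 20 most abundant genes were added after seeing the data.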

Additional observations from a re-analysis of the deposited data

How the results depend on the processing

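Median log2 fold changes of the family kept their direction in all 5 comparisons under every alternative run. With a library left out they ran from 0.20 to 0.27 for depletion minus shRNA control, -0.11 to -0.01 for overexpression minus vector control, -0.52 to -0.45 for shRNA control minus vector control and -0.30 to -0.21 for depletion minus vector control. All 32 rises on depletion were also called under RLE scaling, no filter, the 1 CPM filter, DESeq2, limma voom and only the 6 libraries compared, and 31 of them with the replicate block. The number of genes called was less stable. Genes higher on depletion numbered 50 with only the 6 libraries compared and 16 among genes with no annotated exon overlap, and 21 to 48 with a library left out. Genes lower on depletion numbered 1 under RLE scaling, 1 with no filter, 4 with only the 6 libraries (MRPS10, MRPS18A, MRPL14, MRPL49), 1 with no overlap, and 1 to 4 with a library left out. Fewer genes are counted where overlap is barred, and the cause of the other shifts was not tested. For the alternative fits the shares of all tested genes called are not given here, so no shift in a count can be read as particular to the family. Genes higher on overexpression numbered 1 with no filter (MRPS6) and 1 with the 1 CPM filter, DESeq2 and protein-coding genes alone (MRPS14 each time), and 0 to 1 with a library left out; genes lower there numbered 0 to 1. Negative differences numbered 29 by DESeq2, 7 with no overlap and 5 to 34 with a library left out. In the shRNA control minus vector control comparison genes called higher numbered 3 with no filter, 2 with the 1 CPM filter, 2 with the replicate block, 0 with no overlap and 1 to 2 with a library left out, and 29 were lower with no overlap. In depletion minus vector control they numbered 2 with no filter, the 1 CPM filter, DESeq2, limma voom and the replicate block (MRPS14 and MRPS6 each time), 0 with no overlap and 1 to 2 with a library left out, and 21 were lower with no overlap.

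Replicate numbers did not pair the libraries: correlations of same-numbered deviations over all pairs of groups ran from -0.0649 to 0.0629. The replicate block gave 33 genes higher and 2 lower on depletion.

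Genes near 0 on overexpression, none of them called, changed sign. MRPL15 was 0.01 with no filter, 0.02 with the 1 CPM filter, 0.01 with only the 6 libraries and 0.03 with protein-coding genes alone. MRPS27 was 0.02, 0.03, 0.01 and 0.03 in the same order. MRPS18C was 0.01 with the 1 CPM filter and 0.01 with protein-coding genes alone, and MRPS18A was 0.01 with protein-coding genes alone. With a library left out, log2 fold changes on overexpression ran from -0.01 to 0.15 for MRPL24, -0.05 to 0.01 for MRPS18C, -0.02 to 0.02 for MRPS27, -0.23 to 0.06 for MRPL23, -0.05 to 0.02 for MRPL15, -0.07 to 0.02 for MRPS18A, -0.20 to 0.01 for MRPL14, -0.15 to 0.01 for MRPL2, -0.24 to 0.11 for MRPL12, -0.21 to 0.01 for MRPL28, -0.28 to 0.02 for MRPS12, -0.08 to 0.00 for MRPS18B and -0.04 to 0.25 for MRPS36. On depletion MRPS18B ran from -0.09 to 0.01.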

Other observations

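Other nuclear genes for mitochondria were counted with the same fit on USP22 depletion, where 9.4% of all tested genes rose and 10.4% fell. Of 17 tested genes of mitochondrial protein import 9 rose and none fell, with a median log2 fold change of 0.22 (edgeR adjusted p under 0.05). HSPD1, the chaperonin of the matrix, had 1122, 1190 and 1061 CPM on depletion, against 828, 874 and 839 CPM in the shRNA control (log2 fold change 0.41, edgeR adjusted p = 3.7e-05). HSPA9, the motor chaperone of import, had 483, 511 and 457 CPM on depletion, against 379, 398 and 389 CPM in the shRNA control (log2 fold change 0.31, edgeR adjusted p = 0.000541). Neither gene overlapped between the groups. Of 10 genes of mitochondrial transcription and genome maintenance 4 rose and none fell, among them MGME1, a nuclease of mitochondrial DNA (log2 fold change 0.54, edgeR adjusted p = 1.15e-05), and SSBP1, its single-stranded DNA-binding protein (0.32, edgeR adjusted p = 0.00118).

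Of 9 regulators of nuclear genes for mitochondria 3 rose on depletion. Beside MYC these were PPARGC1B, a coactivator of mitochondrial genes, with 19.6, 17.6 and 21.1 CPM on depletion against 12.6, 12.4 and 13.9 CPM in the shRNA control (log2 fold change 0.59, edgeR adjusted p = 4.61e-05), and PPARGC1A, its paralog, with 1.03 ± 0.222 CPM on depletion and 0.403 ± 0.0345 CPM in the shRNA control (SD, n = 3 each; edgeR adjusted p = 0.00188). NRF1 and GABPA, whose sites were searched in the promoters, had log2 fold changes of 0.08 and 0.13 (edgeR adjusted p = 0.523 and 0.454). On overexpression none of the 9 was called by edgeR. TOMM20, a receptor of the import pore, was higher on overexpression (log2 fold change 0.30, edgeR adjusted p = 0.0361) and TOMM22, another receptor, was lower (-0.23, edgeR adjusted p = 0.0325).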
